A study of Mus musculus with 6 samples.

Results

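Aquaporins are channel proteins that carry water across cell membranes, and 8 of them were followed here in RNA-seq data from mouse retina. The genes were Aqp1, Aqp4, Aqp5 and Aqp8, which form water channels, Aqp3, Aqp7 and Aqp9, which also pass glycerol, and Aqp11, which sits on membranes inside the cell. They were chosen by gene symbol alone, as aquaporins of cornea, Müller glia, photoreceptors and other eye tissue, and made up 8 of the 23420 genes in the count table. Every one of the 8 symbols was found in the table.

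Total retinal RNA was compared between 3 groups of 2 libraries each. Control mice had no treatment. Light-exposed mice received white light of 10000 lux for 1 h and were analysed after 4 days. The minocycline group received the same light and was also injected intraperitoneally with 45 mg/kg minocycline, a tetracycline antibiotic, each day for 4 days. The sample labels give the strain as CD1 for all 3 groups, and give no age or sex. The published methods state that mice of both sexes, of an age given as a range of weeks, were used, without saying which sex went into which library. They name albino BALB/cJ mice, a higher light intensity, additional injections on the first days and another RNA kit, so strain, intensity, schedule and kit differ between these sources. Neither source states that the sequenced control or light-exposed mice received vehicle injections, so the drug and the injection cannot be told apart. The minocycline columns share a single header and go by the letters A and B. Library totals ranged from 15205930 in control 1 to 22856922 in minocycline A. A gene with 0 counts could have reached 3 counts by chance, which is 0.131 to 0.213 CPM depending on the library. CPM is the count scaled by the TMM-adjusted library size, and intervals and limits from counts cover counting error only, since PCR copies are not independent molecules. Control 1 stood apart in its sex-linked transcripts. It held 77778 Xist counts and 11 counts from the Y chromosome, against 25 to 188 and 6532 to 12858 in the other 5 libraries. Fold changes and calls of the aquaporins, and calls on gene lists, that rest on control 1 are therefore given with and without it. Rod genes summed to 48268 to 115382 CPM in every library, with all 12 detected, so each library held retina. This does not show that the tissue make-up was equal. Markers of corneal epithelium, pigment cells, smooth muscle and stroma were higher in both minocycline libraries, and lens markers in light-exposed replicate 1, with values given below.

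Water channels let tissues move water along osmotic gradients that ion transport sets up. In the retina, Aqp4 is concentrated in the endfeet of Müller glia beside the potassium channel Kcnj10, and Aqp1 is known from the outer retina and from a class of amacrine cells. Aqp3 and Aqp5 are known as channels of surface and glandular epithelia, the corneal epithelium among them. Aqp7 and Aqp9 carry glycerol in fat and liver, and Aqp8 is found in gut, pancreas and liver.

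Among the aquaporins, Aqp1 and Aqp3 had the called changes with the lowest and the highest fitted fold. The 250 bases upstream of their RefSeq start sites are shown for that reason. Aqp1 starts on the plus strand of chromosome 6, where the window is chr6:55336049-55336298 of GRCm38.p6. The gene itself, in GENCODE vM21, spans chr6:55336432-55348555. Aqp3 lies on the minus strand at chr4:41092722-41098183, and its window is chr4:41098184-41098433. The sequences are from RefSeq, written 5′ to 3′ on the strand of the gene. Capitals mark 3 motifs on either strand. TATAAA is an element of core promoters, GGGCGG is known to be bound by Sp-family factors, and CACCC by Krüppel-like factors.
Aqp3: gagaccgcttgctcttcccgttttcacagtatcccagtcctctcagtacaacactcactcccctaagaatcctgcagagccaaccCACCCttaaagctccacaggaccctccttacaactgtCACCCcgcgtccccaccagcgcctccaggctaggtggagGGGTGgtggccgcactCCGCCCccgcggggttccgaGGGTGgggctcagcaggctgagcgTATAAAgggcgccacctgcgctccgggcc
Aqp1: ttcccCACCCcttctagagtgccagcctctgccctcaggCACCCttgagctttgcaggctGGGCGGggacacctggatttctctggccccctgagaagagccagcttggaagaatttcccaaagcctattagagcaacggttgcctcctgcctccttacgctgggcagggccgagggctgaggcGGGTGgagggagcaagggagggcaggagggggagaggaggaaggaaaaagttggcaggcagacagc

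A window was found for 7 of the 8 members. TATAAA stood in the Aqp3 window, beginning 29 bases before the start, and in no window of the other members with a sequence. Of all 32841 windows of this length, 12.4% held it. GGGCGG was found 1 time in the Aqp3 window, 1 time in the Aqp1 window and 2 times in that of Aqp5, against 32.7% of all windows with at least 1. CACCC occurred 4 times in the Aqp3 window, 3 times in that of Aqp1, 2 times in that of Aqp11, and 1 time each in those of Aqp5 and Aqp8 and in 1 of the 2 windows of Aqp7. Of all windows, 52.0% held it, and those of Aqp9 did not. The Aqp5 window (chr15:99590778-99591027, plus strand) was the richest in GC, at 78.4% with 38 CpG, where the median window had 52.4% and 6. In GENCODE vM21 the Aqp5 gene starts at 99590782, so nearly all of this window lies within the gene as annotated there. The windows of Aqp9 lie within its GENCODE gene, and those of Aqp7, Aqp8 and Aqp11 overlap theirs in part. These matches describe letters and are not evidence of binding.

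Levels were compared between aquaporins as CPM per kilobase of exon, the scale on which genes of different length can be set side by side. In control retinas Aqp1 was highest, at 92.6 ± 25.4 CPM per kb (SD, n = 2), followed by Aqp4 at 15.8 ± 6.49 and Aqp5 at 0.600 ± 0.273. Aqp11 stood at 0.192 ± 0.0384 and Aqp9 at 0.137 ± 0.0733, and these neighbours overlapped between libraries. Aqp3 and Aqp7 had 1 count each over both control libraries, and Aqp8 had none. In light-exposed retinas the level of Aqp1 was 44.0 ± 10.5 and that of Aqp4 33.5 ± 5.86 CPM per kb, so that the lower Aqp1 library (36.6) lay below the higher Aqp4 library (37.7). Aqp5 (1.49 ± 0.196), Aqp11 (0.295 ± 0.0391) and Aqp9 (0.146 ± 0.0124) kept the control order without overlap. In minocycline-treated retinas Aqp1 was at 87.0 ± 15.4, Aqp4 at 17.3 ± 3.82 and Aqp5 at 6.85 ± 2.37 CPM per kb. Aqp3 took the fourth place there at 2.43 ± 0.909, above Aqp11 (0.251 ± 0.109) and Aqp9 (0.147 ± 0.0449), which again overlapped. The length of Aqp11 is the union of all its annotated exons, 9418 bases, and its level per kb depends on that choice.

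The make-up of the aquaporin pool differed accordingly. Of the summed level per kb of the 8 genes, Aqp1 made up 83.7% and 86.3% in control 1 and control 2, 62.1% and 47.8% in the light-exposed libraries, and 73.4% and 78.6% in minocycline A and B. Aqp4 made up 15.4% and 12.9%, then 35.5% and 49.3%, then 19.3% and 11.7%. The light-exposed libraries stood outside the range of the other 4 for both genes. Aqp5 made up 0.600% and 0.470% in control, 1.63% and 2.13% after light, and 5.0% and 6.84% with minocycline, and its 3 groups did not overlap. These shares carry no test.

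**Figure D1:**
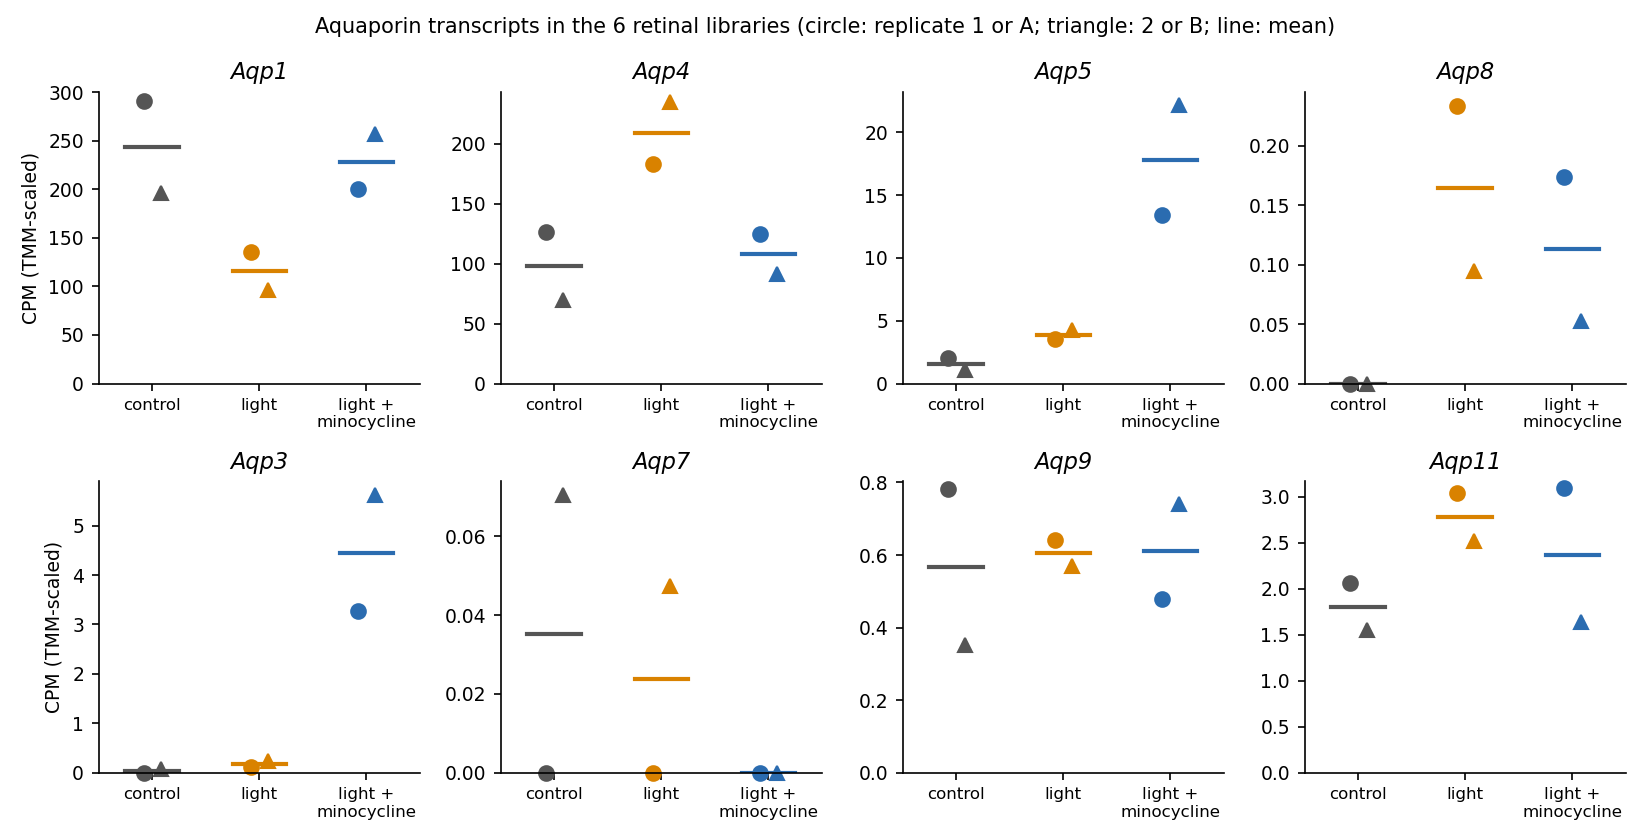
TMM-scaled CPM of each of the 8 aquaporins in the 6 libraries, with 1 panel per gene and the groups on the x axis. Circles are replicate 1 or A, triangles replicate 2 or B, and lines the group means. Each y axis starts at 0 and has its own scale. Aqp1 is lowest and Aqp4 highest in the light-exposed libraries, and Aqp3 and Aqp5 are highest in the minocycline libraries.

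The comparison of light-exposed with control retinas addressed what light damage did to retinal transcripts. Aqp1 fell, to 2.10-fold lower. Aqp4 and Aqp5 had fitted values of 2.14-fold and 2.49-fold higher that missed the threshold of an adjusted p under 0.05, set for edgeR's quasi-likelihood F test after Benjamini-Hochberg adjustment. Of the 8 genes, 5 passed the filter on low counts and were tested, and 1 was called, which was Aqp1. Of all 14349 genes tested, 11.3% were called in either direction and 3.8% were called lower. Without control 1, 0 members and 4 of all genes tested were called by edgeR. The median log2 fold change of the 5 tested members was 0.62, against 0.00 over all genes. The libraries of the groups did not overlap for 4 of the 5, a pattern that 60.9% of all tested genes also had. With total library size in place of TMM scaling the median gene had a log2 fold change of 0.24, not 0.00, and the calls over all genes split into 1930 higher and 133 lower in place of 1079 and 545. Values below are on the TMM scale.

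Aqp1, the main water channel by level in these retinas, was measured at 290 and 196 CPM in control 1 and control 2. It stood at 135 and 96.1 CPM in light-exposed replicates 1 and 2, and at 200 and 257 CPM in minocycline A and B. Every light-exposed library lay below the other 4, and the control and minocycline libraries overlapped. After light the log2 fold change was -1.07 ± 0.23 (SE, n = 2 against 2), with an adjusted p of 0.0251 in edgeR's quasi-likelihood test. Without control 1 it was -0.76 (adjusted p = 0.116 in edgeR), without control 2 -1.33 (0.0882), and without light-exposed replicate 2 -0.84 (0.0622). Each of these 3 libraries was thus needed for the call, and without light-exposed replicate 1 the log2 fold change was -1.34 with an edgeR adjusted p of 0.000807.

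Rod genes differed between the groups in the same order as Aqp1. The 12 rod markers, which include the transducin subunit Gnat1, summed to 115382 and 91281 CPM in control, 67803 and 48268 CPM after light, and 96925 and 106589 CPM with minocycline. After light all 12 were lower in both libraries than in either control library, with a median log2 fold change of -0.83, and 1 of them, the rod transcription factor Nrl, passed the test (-0.96 ± 0.24, edgeR adjusted p = 0.0296). Per 1000 rod counts, Aqp1 had 2.52 and 2.15 counts in control, 2.00 and 1.99 after light, and 2.06 and 2.41 with minocycline. In bulk RNA, fewer cells of a type and less RNA per cell cannot be told apart, and the part of the rod genes in the Aqp1 difference was not tested.

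Lists for other cells known to make Aqp1 had the following values. The 12 amacrine markers, such as the GABA-synthesizing enzyme Gad1, summed to 835 and 675 CPM in control, 888 and 953 CPM after light, and 1174 and 646 CPM with minocycline, and 0 of the 12 passed edgeR's test in any of the 3 comparisons. Per 1000 amacrine counts, Aqp1 had 348 and 290 counts in control, 152 and 101 after light, and 170 and 398 with minocycline. Vessel endothelium markers summed to 216 and 187 CPM in control, 283 and 367 CPM after light, and 289 and 217 CPM with minocycline, and 1 of the 9 tested, the VEGF receptor Kdr, was called higher after light, a call lost without control 1 and without control 2. Red blood cells carry Aqp1 protein, and their 8 measured markers summed to 0.218 to 1.91 CPM over the 6 libraries. The globin genes on that list, Hba-a1, Hba-a2, Hbb-b1 and Hbb-b2, were at 0 in all 6 libraries, so they may not have been counted under these symbols, and the sum rests on the other 4, among them Alas2 at 2 to 34 counts. The part of amacrine and vessel genes in the Aqp1 difference was not tested.

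**Figure D2:**
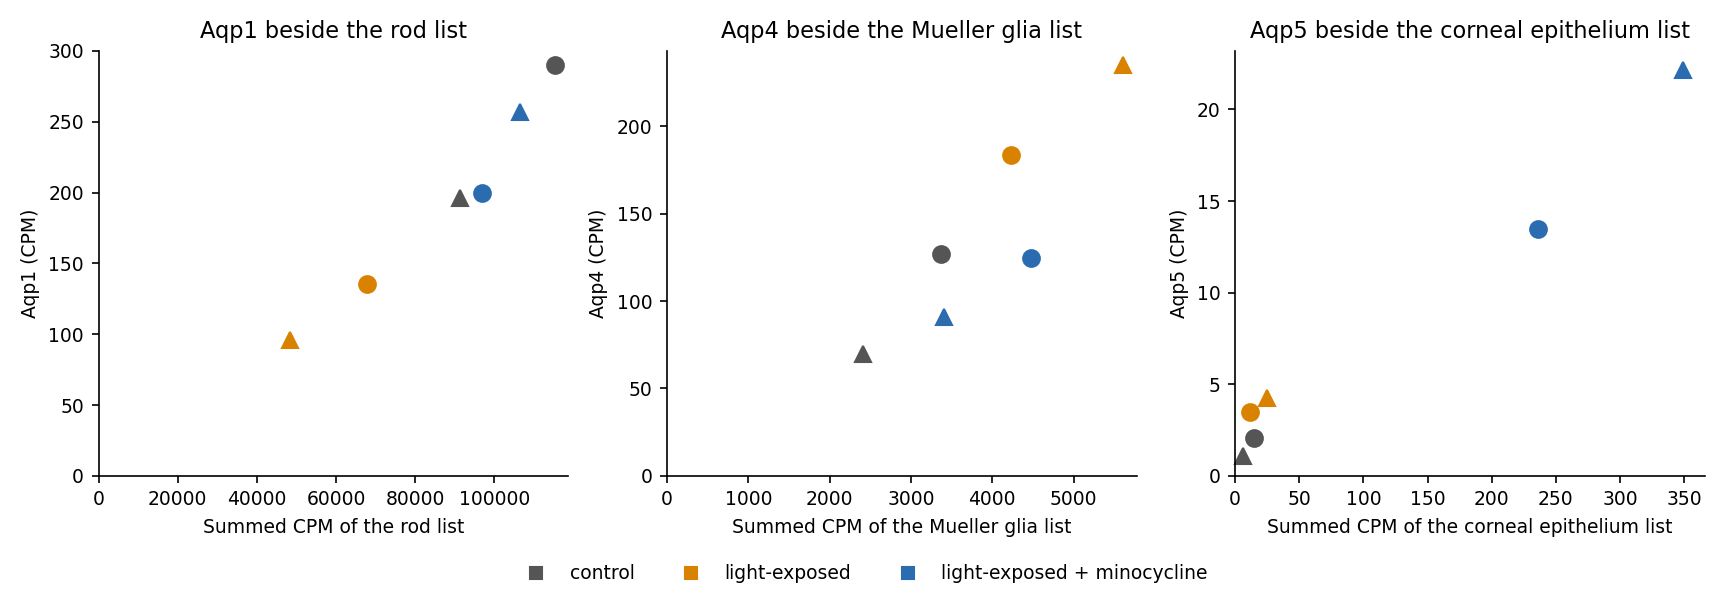
CPM of Aqp1, Aqp4 and Aqp5 (y axes) against the summed CPM of rod, Müller glia and corneal epithelium markers (x axes), with 1 point per library, coloured by group. Circles are replicate 1 or A and triangles replicate 2 or B. Rod sums run from 48268 to 115382 CPM and Aqp1 is lowest where they are lowest. The minocycline libraries hold the highest corneal sums, 236 and 349 CPM, and the highest Aqp5.

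Aqp4, the water channel of Müller endfeet, was measured at 127 and 69.6 CPM in control 1 and control 2. It stood at 183 and 235 CPM in the light-exposed libraries and at 125 and 91.1 CPM in minocycline A and B. Both light-exposed libraries were above the other 4, while the minocycline libraries fell between the 2 control libraries. The log2 fold change after light was 1.10 ± 0.29 (SE, 95% interval 0.39 to 1.80), and the adjusted p of 0.0629 in edgeR's test missed the threshold. DESeq2 called it, as it called 13.3% of all genes tested. Control 2 had the lowest value, and without it the log2 fold change was 0.72. Without control 1 it was 1.58. A gene annotated on the opposite strand overlaps Aqp4, and the use of strand in counting is not given in the sources used here.

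Of 12 Müller glia markers 4 rose after light, where 7.52% of all genes were called higher, and 0 of the 12 were called without control 1 or without control 2. The 12 summed to 3368 and 2411 CPM in control, 4231 and 5613 CPM after light, and 4480 and 3407 CPM with minocycline. Those that rose in edgeR's test, with a median log2 fold change of 0.76 over the 12, were the glutamate transporter Slc1a3 (1.13), the lipid carrier Apoe (2.48), the intermediate filament Vim (1.71) and the secreted chaperone Clu (0.89). Glutamine synthetase, Glul, had a log2 fold change of 0.21 (edgeR adjusted p = 0.602). Per 1000 Müller counts, Aqp4 had 37.7 and 28.9 counts in control, 43.3 and 41.9 after light, and 27.8 and 26.7 with minocycline. Genes of reactive glia, whose list shares Vim, summed to 294 and 418 CPM in control, 936 and 1261 CPM after light, and 465 and 385 CPM with minocycline. Of these 10 genes, 7 rose after light, among them Gfap, the intermediate filament of gliosis (2.02, edgeR adjusted p = 0.0154), the cytokine receptor Osmr, the complement gene C4b and the copper carrier Cp. Myeloid markers, the genes of microglia and macrophages, were higher in the same libraries, at 25.4 and 35.6 CPM in control, 266 and 866 CPM after light, and 58.2 and 27.2 CPM with minocycline. Myeloid cells also express Apoe and Vim. Of the 9 myeloid genes tested, 2 rose after light, Aif1 and Ptprc, and 0 were called by edgeR without control 1 or without control 2. The part of these 3 lists in the Aqp4 difference, and of myeloid cells in the glial genes, was not tested.

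Among genes of proteins that anchor or accompany Aqp4 in the endfoot membrane, Mlc1, Dtna and Agrn rose after light. The membrane protein Mlc1 was at 54.4 and 46.4 CPM in control and 90.4 and 132 CPM after light, a log2 fold change of 1.15 ± 0.19 (edgeR adjusted p = 0.0131). The dystrobrevin gene Dtna had a log2 fold change of 0.83 and the basement membrane proteoglycan Agrn of 0.76. Dystrophin, Dmd, had a log2 fold change of -0.56 (edgeR adjusted p = 0.0754). Kcnj10, also on the Müller list, was at 80.6 and 51.9 CPM in control and 84.2 and 93.9 CPM after light, with a log2 fold change of 0.43 (edgeR adjusted p = 0.189).

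**Figure D3:**
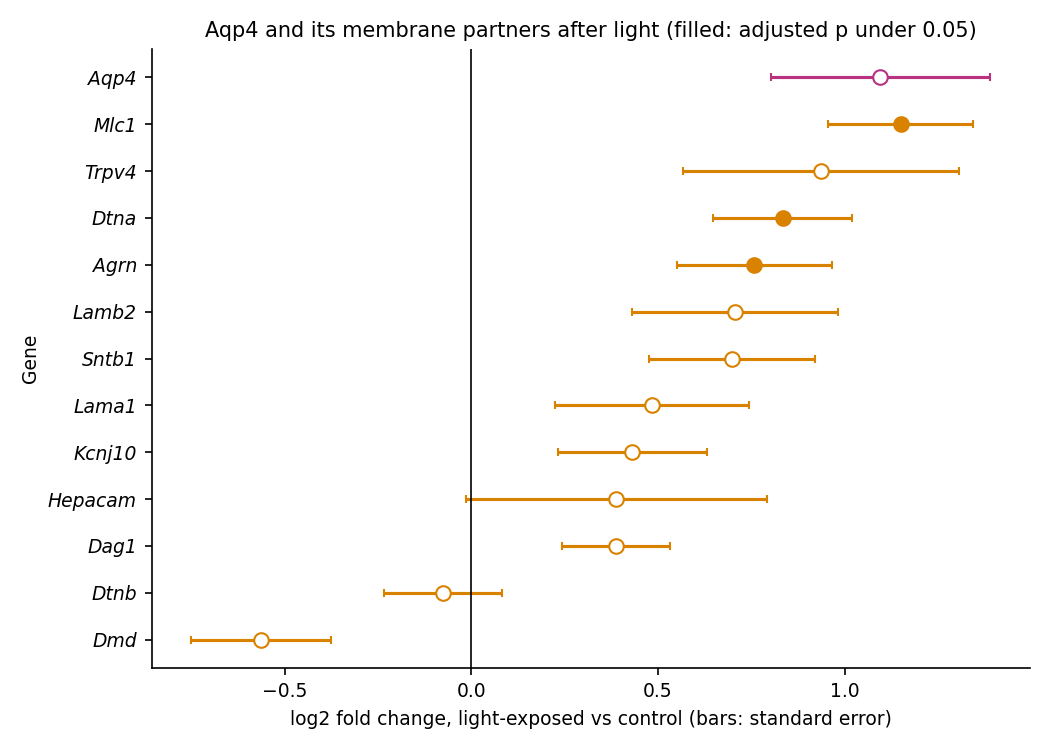
Log2 fold changes of Aqp4 and 12 of its membrane partners in light-exposed against control retinas, with bars for the standard error. Filled points have an adjusted p under 0.05. The filled points, Mlc1, Dtna and Agrn, lie above 0, Dmd at -0.56 is open, and Aqp4 itself is at 1.10, an open point.

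Among ion and lactate transporters that work alongside water channels, 1 of 12 rose after light, the bicarbonate exchanger Slc4a3 (0.63, edgeR adjusted p = 0.0303). Slc16a3, a lactate exporter, fell by 0.77 on the log2 scale (edgeR adjusted p = 0.0431), and the median of the 12 was 0.05. Over all genes 7.52% were called higher and 3.8% lower, so 1 of 12 in each direction is near the background and nothing is read from it. Glycerol handling, the pathway that the aquaglyceroporins feed, had 11 tested genes. After light 3 of them rose, namely Gpd1, which links glycerol phosphate to glycolysis (1.66), the lipase Mgll (0.70) and the acyltransferase Agpat2 (1.88). Dgat1, which makes triglyceride, fell by 0.58 on the log2 scale, and the median of the 11 was 0.30. Without control 1 the only edgeR call after light among the rod, Müller, reactive glia and these 3 accompanying lists was Serpina3n, an acute-phase gene of reactive glia. Without control 2 the calls were Serpina3n and Stat3, a transcription factor of the cytokine response. The median log2 fold changes without control 1 were -0.64 for rods, 1.04 for Müller glia, 1.66 for reactive glia, 0.15 for the transporters and 0.23 for glycerol handling. In both comparisons of the minocycline group, 0 genes of the 3 accompanying lists (membrane partners, transporters and glycerol handling) were called by edgeR.

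Aqp5 was low in control retinas, at 29 and 15 counts, or 2.06 and 1.06 CPM. It held 60 and 89 counts, or 3.50 and 4.23 CPM, after light. Both light-exposed libraries were above both controls. The log2 fold change was 1.31 ± 0.42 (SE, 95% interval 0.40 to 2.23) with an adjusted p of 0.0647 in edgeR's test, so it was not called. Without control 2 it was 0.90, and without control 1 it was 1.86.

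Of the remaining members, Aqp11 and Aqp9 were tested after light. Aqp11 was at 2.06 and 1.55 CPM in control, 3.04 and 2.52 CPM after light, and 3.09 and 1.64 CPM with minocycline. Its light-exposed libraries lay above the controls, but the log2 fold change of 0.62 had a 95% interval of -0.23 to 1.48 (edgeR adjusted p = 0.322), and it was 0.83 without control 1. Aqp9 was at 0.782 and 0.352 CPM in control, 0.643 and 0.570 CPM after light, and 0.479 and 0.742 CPM with minocycline, and its groups overlapped in every comparison. Genes annotated on the opposite strand overlap it. The log2 fold change of Aqp9 after light was 0.10 (95% interval -1.16 to 1.36), which was 0.76 without control 1 and reversed to -0.37 without control 2. Aqp3, with 0 and 1 counts in control and 2 and 5 counts after light, did not pass the filter, and the depth-scaled ratio of its summed counts was 5.18 with a counting interval of 0.666 to 234.

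**Figure D4:**
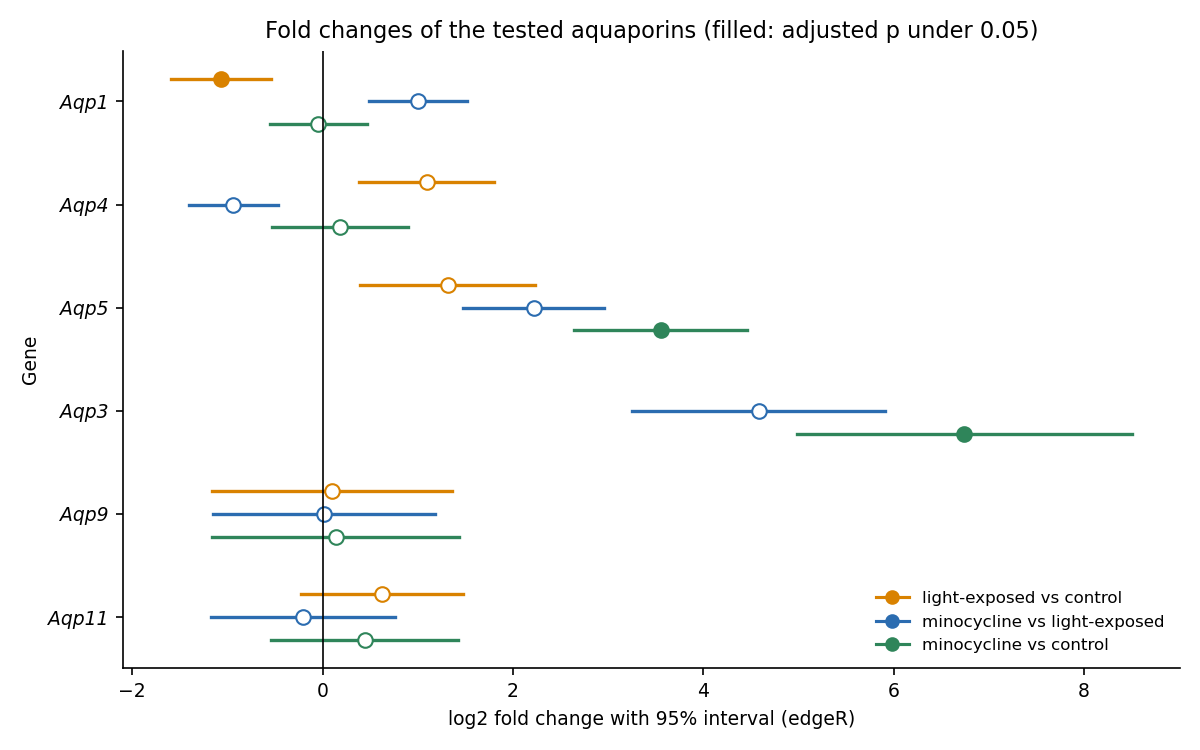
Log2 fold changes of the 6 aquaporins tested in at least 1 comparison, with their 95% intervals from edgeR, for the 3 pairs of groups. Filled points have an adjusted p under 0.05. Filled are Aqp1 in light-exposed against control (-1.07), and Aqp5 (3.55) and Aqp3 (6.74) in minocycline against control.

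Minocycline-treated retinas were next compared with light-exposed ones, a comparison in which the drug and the injection cannot be told apart. Here 6 members were tested, Aqp3 among them only through its counts with minocycline, and 0 were called by edgeR, where 0.0542% of all 14750 genes tested were called. At an unadjusted p under 0.05 edgeR counted 4 members, against 21.1% of all genes. DESeq2 called the same 4, Aqp1, Aqp3, Aqp4 and Aqp5, where it called 8.12% of all genes. The libraries of the groups did not overlap for these 4, as for 54.8% of all genes. Since Aqp3 had to differ to be tested, these counts are no support for it. The comparisons share the light-exposed libraries, so the values that follow are not independent of those above.

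Aqp3 showed the highest fitted value. Its counts were 2 and 5 after light and 75 and 106 with minocycline, or 0.117 and 0.237 CPM against 3.26 and 5.62 CPM. The log2 fold change was 4.58 ± 0.57 (SE, 95% interval 3.25 to 5.91), with an adjusted p of 0.0638 in edgeR's test. For Aqp5, at 13.4 and 22.1 CPM with minocycline, the log2 fold change was 2.22 ± 0.32 (95% interval 1.48 to 2.96, edgeR adjusted p = 0.0691). In both genes each minocycline library lay above each light-exposed library.

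Aqp1 and Aqp4 of minocycline-treated retinas lay within the range of the control libraries. For Aqp1 the log2 fold change against light-exposed retinas was 1.00 ± 0.22 (95% interval 0.49 to 1.51, edgeR adjusted p = 0.0805). The value for Aqp4 was -0.94 ± 0.20 (95% interval -1.41 to -0.47, edgeR adjusted p = 0.0769). The light-exposed libraries lay below both minocycline libraries in Aqp1 and above both in Aqp4. Rod markers were higher in both minocycline libraries for all 12 genes, with a median log2 fold change of 0.77 and 0 called. Reactive glia markers were lower in both for 9 of 10, and 2 of them fell, the acute-phase genes Serpina3n (-2.19) and Lcn2 (-3.32). Müller markers had a median log2 fold change of -0.32 and 0 called. For Aqp11 the log2 fold change was -0.21 (95% interval -1.18 to 0.76), and it was 0.16 without minocycline B. For Aqp9 it was 0.02 (95% interval -1.15 to 1.18), and with total library size it reversed to -0.16.

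Minocycline-treated and control retinas were compared to see which transcripts differed from untreated tissue. Aqp3 and Aqp5 rose. These were 2 of the 6 members tested, where 0.162% of all 14181 genes were called, all of them higher. Aqp3 passed the filter on low counts only through the minocycline libraries, so it had to differ to be tested, and the counts over the 6 are no support for it. Aqp3 and Aqp5 were also the 2 of 6 whose groups did not overlap, against 39.9% of all genes.

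Aqp3, a glycerol and water channel of surface epithelia, had 0 and 1 counts in the control libraries against 75 and 106 with minocycline. The ratio of the summed counts, scaled for depth, was 122 with a counting interval of 21.7 to 4856, since the control group rests on a single count. Its adjusted p was 0.0366 in edgeR's quasi-likelihood test, with a fitted log2 fold change of 6.74 that depends on how the single control count is smoothed. Aqp3 was tested only because of its counts with minocycline, so this p is no support by itself. With a minimum of 10 counts in every library Aqp3 was not tested. Aqp5, a water channel of glands and of the corneal surface, stood at 2.06 and 1.06 CPM in control and 13.4 and 22.1 CPM with minocycline. It was 11.7-fold higher, a log2 fold change of 3.55 ± 0.40 (SE, 95% interval 2.64 to 4.46, edgeR adjusted p = 0.0366). The call of both genes was lost without control 1 (edgeR adjusted p = 0.107 for Aqp3 and 0.106 for Aqp5) and without control 2 (0.0950 and 0.173), while the log2 fold changes were 5.88 and 9.38 for Aqp3, and 4.10 and 3.15 for Aqp5. The 9.38 of Aqp3 rests on 0 counts in control 1, the only control left, so its size is set by the smoothing. With all 6 libraries in one fit the edgeR adjusted p was 0.0519 for both genes.

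Genes of the corneal epithelium were higher in the same libraries as Aqp3 and Aqp5. Their 18 markers summed to 14.9 and 5.99 CPM in control, 11.6 and 24.6 CPM after light, and 236 and 349 CPM with minocycline. The numbers of these genes at 0 counts were 3 and 5 in control, 2 and 3 after light, and 0 in both minocycline libraries. Krt12, the keratin that defines corneal epithelium, was at 2.56 and 0.422 CPM in control, 2.51 and 6.08 CPM after light, and 78.3 and 127 CPM with minocycline. Between light-exposed and control 8 passed the filter and 1 rose, where 7.52% of all genes were called higher. It was the basal keratin Krt15, with 2 and 3 counts in control and 13 and 19 after light (log2 fold change 2.19, edgeR adjusted p = 0.0476). That call was lost without control 1 and without control 2, with 0 of 9 called in each. Between minocycline-treated and control 17 were tested. Genes that passed only through the minocycline libraries had to be higher there, so that all 17 were higher is in part fixed by the filter. In edgeR's test, which called 0.162% of all genes, 5 rose: the desmosome genes Dsp, Dsg1a and Dsc3, the epithelial regulator Trim29 and the calmodulin-like Calml3. Of these, Dsg1a, Dsc3 and Trim29 had 0 to 2 counts in each control library. Against light-exposed retinas 2 of 17 tested rose, Dsp and Calml3, where 0.0542% of all genes were called. Without control 1, edgeR called 3 of 18 tested higher than control, Calml3, the aldehyde dehydrogenase Aldh3a1 and the basal keratin Krt5, and the same 3 were called without control 2. The median log2 fold change was 6.31 without control 1, 3.96 without control 2 and 4.73 with both.

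Per 1000 corneal counts, Aqp3 had 13.8 and 16.1 counts with minocycline, 10.1 and 9.63 after light, and 0 and 11.8 in control, the last from the single count. Aqp5 had 57.0 and 63.5 counts with minocycline, 303 and 171 after light, and 139 and 176 in control, so that its ratio was lowest in the minocycline libraries. Pigment cell markers summed to 310 and 1400 CPM in minocycline A and B against 16.6 to 75.0 CPM in the other 4 libraries. Smooth muscle markers summed to 204 and 545 CPM against 118 to 184 CPM, and stroma markers to 40.9 and 163 CPM against 12.2 to 16.8 CPM. These 3 lists were higher in minocycline B than in A by a larger factor than Aqp3, Aqp5 or the corneal list were. The part of corneal, pigment, smooth muscle and stromal genes in the Aqp3 and Aqp5 differences was not tested.

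The other 4 tested members were not called between minocycline-treated and control retinas. For Aqp1 the log2 fold change was -0.05 (95% interval -0.56 to 0.47, edgeR adjusted p = 0.954), and it was 0.26 without control 1. For Aqp4 it was 0.18 (95% interval -0.53 to 0.90, edgeR adjusted p = 0.856), and it was 0.67 without control 1 and -0.18 without control 2. Aqp11 had 0.44 (95% interval -0.54 to 1.43) and Aqp9 0.14 (95% interval -1.17 to 1.44), which were 0.65 and 0.81 without control 1. The narrowest of these intervals, that of Aqp1, still spans 0.681-fold to 1.38-fold, so equal levels are not shown.

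Aqp7 and Aqp8 were at or near the limit of detection. Aqp7, the glycerol channel of fat cells, had 1 count in control 2 and 1 in light-exposed replicate 2. Its neighbour Aqp3 lies on the same strand, with 44.6 kb between the genes. Aqp8 had 0 counts in both control libraries, 4 and 2 after light, and 4 and 1 with minocycline, and was tested in no comparison. Of the 4 further aquaporins in the table, Aqp12 had 0 counts in every library. Aqp2 and Aqp6 flank Aqp5 on chromosome 15, at distances of 6.2 and 6.6 kb. Aqp2, the water channel of the kidney collecting duct, had 9 and 4 counts in control, 20 and 16 after light, and 9 and 4 with minocycline. Aqp6 had 29 and 18 counts in control, 33 and 48 after light, and 74 and 26 with minocycline, and neither gene was called in a comparison where it was tested. In neither neighbour of Aqp5 did both minocycline libraries lie above the other 4.

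The genes whose levels ran most alike with 3 members were found by Pearson's r of log2 CPM over the 6 libraries, among 12321 genes with at least 50 counts on average. For Aqp1 they were Cul3 (0.998), Tpgs2, Slc37a3, Fem1c and Naa25 (each 0.997). For Aqp4 they were Msrb2 (0.995), Ube2q2 (0.990), Sel1l3 (0.989), Cadps2 (0.988) and Qrfpr (0.988). For Aqp5 they were Mal (0.991), Upk3bl (0.987), Krt12 (0.986), Calml3 (0.984) and Gsta4 (0.981). Krt12 and Calml3 are also on the corneal list, of which many genes had fewer than 50 counts on average and were not searched. These values describe 6 points in 3 groups that share libraries and depth.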

How the data were processed

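The authors prepared stranded poly-A libraries from retinal RNA, aligned single-end reads to the mm10 mouse genome (GRCm38) with STAR in the RNA Express workflow, and deposited the resulting counts per gene. The annotation, the tool versions and the use of strand are not given in the sources used here. The data statement calls the values normalized DESeq2 counts, but they are whole and unscaled. All value columns were used (0 left out).

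Each pair of groups was fitted with edgeR 4.0.16, run in R 4.3.3 (filterByExpr filter, TMM, robust quasi-likelihood F test, Benjamini-Hochberg adjustment over all 14349, 14750 and 14181 genes tested). A gene was called at an adjusted p under 0.05. CPM are scaled by TMM, log2 CPM used a prior count of 2, and lengths are unions of GENCODE vM21 exons. With 2 libraries per group, p-values measure the spread between these libraries, described as biological replicates. On simulated data, 100% of 200 genes changed by a log2 fold of 2 were recovered in each comparison, with 7, 11 and 12 unchanged genes called. The changes were placed only in well-counted genes. Every simulated gene had the same spread between libraries, smaller than the common spread fitted to these data. The simulation thus checks the fitting steps and does not give the power for these data or for genes of low count.

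The members, the gene lists and the alternatives were chosen with earlier results of these data known. All members are named. List genes could be named where called or among the 4 highest of their list, and not every gene that this rule allows is named. Of the lists, 3 hold pathway genes and 14 hold cell markers. Of the membrane partners, 1 gene called after light is not reported here, and no count over that list after light is given. Alternatives were DESeq2 1.42.0, its size factors, total library size, other filters and thresholds, no robust estimation, one fit of all 6 libraries, the replicate block, a prior count of 0.5, and each library left out.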

Additional observations from a re-analysis of the deposited data

How the results depend on the processing

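Each group held 2 libraries, so a single library decided many calls, and alternatives of alignment or counting were not run. Counts under about 10 per library (Aqp3 in control and light-exposed retinas, Aqp7, Aqp8) set the limit for those genes. Aqp9 held 5 to 14 counts per library, close to that limit, and its levels and fold changes rest on these few counts. Leaving out 1 library in turn gave 68 values, of which 41 kept direction and side of the threshold, 7 lost it, 9 gained it and 11 reversed. Other settings gave 120, of which 99 kept both, 2 lost the threshold, 18 gained it and 1 reversed, Aqp9 in minocycline against light-exposed (-0.16 with total library size). That scaling placed the median gene at a log2 fold change of 0.24 in light-exposed against control and of -0.17 in minocycline against light-exposed. Aqp1 after light was called under all 8 other fits or scalings, with log2 fold changes of -1.07 to -0.84. A prior count of 0.5 gave the same 5 most alike genes for Aqp1, Aqp4 and Aqp5, the members for which they were sought.

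In light-exposed against control, 1 aquaporin was called. Giving the share of all genes called in brackets, the number was 3 with total library size (14.4%) and at an adjusted p under 0.1 (19.6%), and 2 without a filter (12.6%), with a minimum of 10 counts in every library (10.6%), with DESeq2 (13.3%) or with no robust estimation (10.8%). It was 0 with a log2 fold change of at least 2 (2.92%), and 0 to 3 with a library left out. In minocycline against light-exposed, 0 were called, against 4 with no filter (3.97%), DESeq2 (8.12%) or an adjusted p under 0.1 (5.98%), 2 with all 6 libraries in one fit (3.32%), and 0 to 4 with a library left out. In minocycline against control, 2 were called, against 1 with at least 10 counts in every library (0.0224%, Aqp3 not tested), 0 in one fit of all 6 libraries (0%), and 0 to 2 with a library left out. Without 1 library, reversed values ranged in light-exposed against control from -0.37 to 0.76 (Aqp9), and in minocycline against light-exposed from -0.33 to 0.33 (Aqp9) and -0.72 to 0.16 (Aqp11). In minocycline against control they ranged from -0.30 to 0.26 (Aqp1), -0.18 to 0.67 (Aqp4), -0.32 to 0.81 (Aqp9) and -0.10 to 0.78 (Aqp11). With total library size the level per kb of Aqp9 in light-exposed retinas was 0.160. The cause was not tested.

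Over all genes, edgeR called 1624 in light-exposed against control, against 2525 with the replicate block and 4 to 2145 with a library left out. In minocycline against light-exposed it called 8, against 1197 with DESeq2, 732 with no filter, 488 in one fit, 15 without robust estimation, 2 with DESeq2 size factors, 0 with total library size and 14 to 772 with a library left out. In minocycline against control it called 23, against 168 with DESeq2, 187 with no filter, 3 with at least 10 counts in every library, 0 in one fit and 3 to 480 with a library left out.

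With the replicate block, 3 aquaporins were called in light-exposed against control (Aqp1, Aqp4 and Aqp5), where 17.6% of all genes were. The replicate differences of the groups correlated at -0.01 over 14713 genes, so the numbers are not shown to pair the libraries. For the minocycline group no paired analysis was possible because its columns are not numbered.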

Other observations

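Mip, the aquaporin of lens fibres, had 9 counts in light-exposed replicate 1 and 0 in the other 5 libraries. Lens markers, among them the crystallin Cryaa, summed to 166 CPM in that library and to 2.06 to 18.5 CPM elsewhere, and 2 of the 3 tested in light-exposed against control, Crybb3 and Bfsp2, were called higher by edgeR. Without control 1 and without control 2, 0 of 8 were called. Retinal pigment epithelium markers, such as the visual cycle isomerase Rpe65, summed to 147 and 367 CPM in control, 153 and 207 CPM after light, and 116 and 186 CPM with minocycline, with 0 of 7 called by edgeR in any comparison. Neutrophil markers summed to 0.0704 to 1.42 CPM, and none passed the filter. Pigment cell, smooth muscle and stroma markers had 0 called by edgeR in every comparison, although their median log2 fold changes in minocycline against control were 4.42, 3.69 and 3.17, and without control 1 were 3.70, 3.11 and 3.18.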
